A study of Drosophila melanogaster with 12 samples.

Results

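Paraquat was given to young and to aged flies, and the quantity described here is the difference of the paraquat response between ages in the oenocyte translatome. For each gene locus it is log2(PQ-Aged / H2O-Aged), the aged response, minus log2(PQ-Young / H2O-Young), the young response. A positive difference means a higher ratio of paraquat to water in aged than in young flies, and a value of 1 means that these ratios differed 2-fold. Loci were taken where the FPKM, the number of fragments scaled by transcript length and by the size of the library, was above 0 in all 4 groups and at least 1 in one or more of them. Of 16191 loci in the table, 9589 met the rule, while 4644 were listed at 0 in one or more groups and 1958 stayed below 1 in every group. Among the 9589 loci, 8747 hold a single protein-coding gene, 380 hold several that share a value, and 462 hold none.

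All 4 groups were mated females that carried the PromE-Gal4 driver and a UAS transgene of FLAG-tagged RpL13A, a large-subunit ribosomal protein. PQ-Aged flies, labelled 28 days old, spent 24 h on food coated with 10 mM paraquat, and H2O-Aged flies of that age had water instead. PQ-Young and H2O-Young flies, labelled 14 days old, were treated in the same ways, and each group had 3 libraries made from pooled females. The ages are those of the sample labels, and the study's text states slightly different ones. The driver marks oenocytes of the abdomen, but tagged ribosomes were pulled down from lysate of whole flies. Every group carries the driver and the tag, so no group shows a response without them.

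Paraquat is a herbicide that takes electrons from redox enzymes and passes them to oxygen, which makes superoxide inside cells. Oenocytes are secretory cells under the cuticle with liver-like duties, known for making very-long-chain fatty acids, cuticular hydrocarbons and pheromones. In a RiboTag experiment, RNA bound to tagged ribosomes stands for the messages being translated in the cells that express the tag.

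The table gives 1 FPKM per locus and group, with the 3 libraries of a group already pooled, so no difference below has a replicate error, a test or a p-value. A fold of 2 is used as a mark of size only, and the depth of the libraries is unknown from these values. A library of H2O-Young lay apart from its group in the study's principal component plot. Since no value per library was used, no result can be given without it, and its part in the H2O-Young values was not tested. RpL13A (chromosome 3R, 5624474 to 5625947 in dm6) had an FPKM of 3171 in PQ-Aged and 3849 in H2O-Aged, and of 7306 in PQ-Young and 8001 in H2O-Young. Its locus also holds the small noncoding RNA genes snoRNA:Me28S-U2134a and snoRNA:Me28S-U2134b, and the value does not separate them. Of 15 oenocyte markers, 11 were among the loci described, and their summed FPKM was 6166 in PQ-Aged, 7656 in H2O-Aged, 27989.6 in PQ-Young and 52484 in H2O-Young. Cyp4g1, the P450 that makes hydrocarbons and the defining oenocyte gene, was listed at 0 with a mark of too many fragments to estimate, which is no sign of absence. Markers of eggshell, midgut, eye and germline were present as well, and their levels are given beside the results they touch. In RNA from bulk lysate, fewer cells of a type and less RNA per cell cannot be told apart.

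Over all 9589 loci the differences centred near 0, with a median of -0.02 and quartiles of -0.49 and 0.52. A difference of 1 or more was seen at 1142 loci (11.9%) and of -1 or less at 768 loci (8.01%). Past 4-fold there were 315 loci on the high and 117 on the low side, of which 194 and 86 had an FPKM under 1 in one or more groups. The zero point depends on how the groups are scaled. Setting Gapdh1, a glycolytic enzyme, equal in all groups moved every difference up by 0.65 and gave 3045 loci at 1 or more and 191 at -1 or less. The young response was broader across loci, with an SD of 0.58 for the aged response and 0.75 for the young response. In aged flies PQ was 2-fold or more above water at 256 loci (2.67%) and 2-fold or more below it at 255 (2.66%). In young flies PQ was 2-fold or more above water at 291 loci (3.03%) and 2-fold or more below it at 848 (8.84%). The scatter of both responses shows this as a cloud stretched downward along the young axis.

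**Figure D1:**
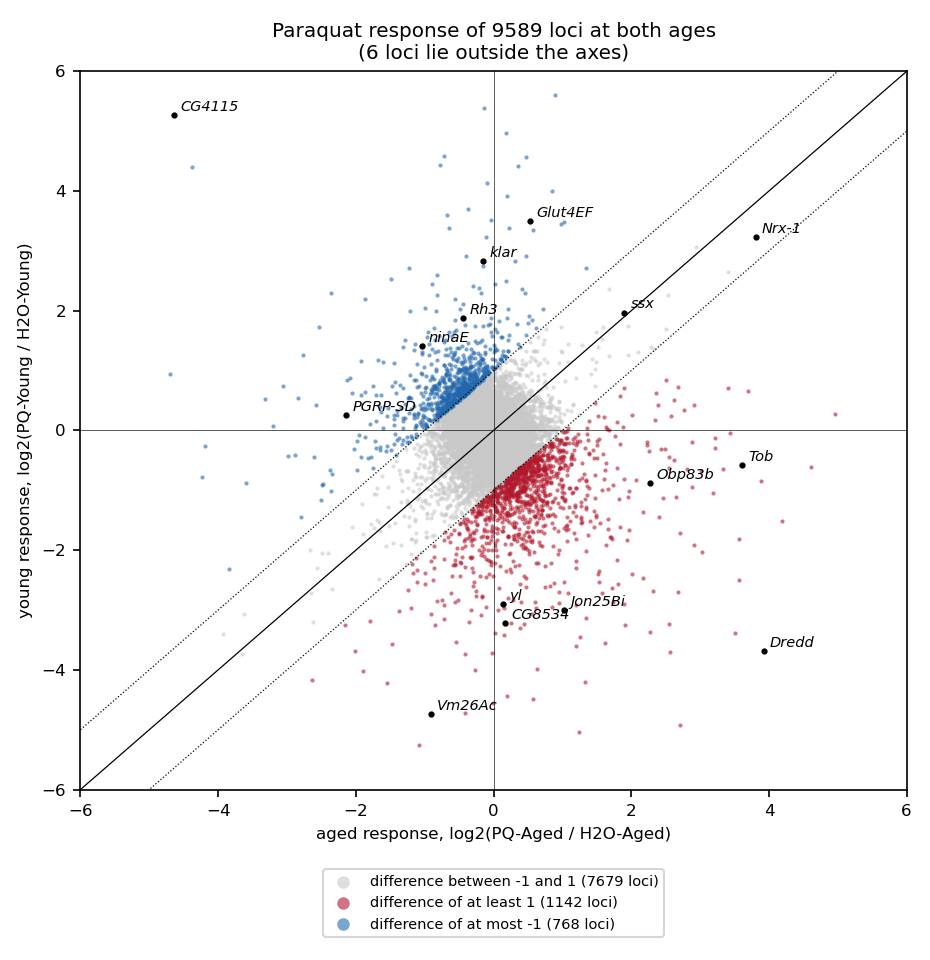
Aged response (horizontal axis, log2) against young response (vertical axis, log2) of each of the 9589 loci, with loci of a difference of 1 or more in red and of -1 or less in blue. The solid line marks equal responses, the dotted lines a difference of 1 either way, and 6 loci lie outside the axes. Most red loci lie below 0 on the young axis and near 0 on the aged axis.

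At the 1142 loci on the high side, the young response alone passed 2-fold, downward, at 524. The aged response alone passed 2-fold, upward, at 121, and 99 loci had responses past 2-fold in opposite directions. Neither response passed 2-fold by itself at 382 of them, where responses of opposite sign add up. At the 768 low loci, the young response alone passed 2-fold, upward, at 201 (26.2%), the aged response alone, downward, at 116 (15.1%), and neither at 420 (54.7%), against 45.9%, 10.6% and 33.5% of the high loci in that order. H2O-Young was the highest of the 4 groups at 84.4% of the high loci, against 41.6% of all loci. On the low side, H2O-Young was the lowest group at 66.9% of the 768 loci, against 32.3% of all loci, and H2O-Aged was the highest at 64.6%, against 26.6%. These shares follow in part from how the difference is built, since each group enters it.

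The difference is the same number as the age ratio under paraquat minus the age ratio in water. At the high loci the median log2(PQ-Aged / PQ-Young) was -0.10, while the median log2(H2O-Aged / H2O-Young) was -1.76. At the low loci these medians were -0.25 under paraquat and 1.15 in water. Over all loci both were -0.11. The high and low loci were chosen by this very difference, so these medians describe the choice and carry no test.

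The highest and lowest genes were ranked among 6043 loci with a single protein-coding gene that reached 10 FPKM in one or more groups. Dredd, the caspase of the Imd immune pathway (chromosome X, 633622 to 635545), was highest, with an FPKM of 893 in PQ-Aged and 58.8 in H2O-Aged, and of 34.3 in PQ-Young and 443 in H2O-Young. Its response was 3.93 in aged and -3.69 in young flies, a difference of 7.62. The locus also holds the microRNA gene mir-9372, and the value does not separate them. Notum, a secreted enzyme that inactivates Wnt ligands, had an FPKM of 0.178 in PQ-Aged, 0.118 in H2O-Aged, 0.234 in PQ-Young and 26.4 in H2O-Young, so that H2O-Young alone stood above 1 FPKM. Dys, the fly dystrophin, was likewise far higher in H2O-Young than elsewhere, with an FPKM of 6.25 in PQ-Aged, 8.34 in H2O-Aged, 5.30 in PQ-Young and 140.3 in H2O-Young. Tob, an antiproliferative regulator, and tau, a microtubule-binding protein, were highest in PQ-Aged instead. Tob had 146 FPKM in PQ-Aged against 11.9 in H2O-Aged, and 11.5 in PQ-Young against 17.1 in H2O-Young, a difference of 4.19. For tau the values were 16.03 FPKM in PQ-Aged against 1.48 in H2O-Aged, and 3.11 in PQ-Young against 3.21 in H2O-Young, a difference of 3.48. In both genes the young groups differed by less than 2-fold.

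The other 10 of the 15 highest were Jon25Bi, Vm26Ac and 8 genes without a given name. Jon25Bi, a digestive protease of the Jonah family, had 6.80 FPKM in PQ-Aged against 3.35 in H2O-Aged, and 6.003 in PQ-Young against 47.9 in H2O-Young, and its difference was 4.02. Vm26Ac, a vitelline membrane protein of the inner eggshell, had 1.61 FPKM in PQ-Aged against 3.03 in H2O-Aged, and 1.43 in PQ-Young against 38.0 in H2O-Young. In both, H2O-Young stood alone at the high end. The differences of CG43156, CG7567, CG33946, CG15571, CG15213, CG17107, CG13427 and CG42367 lay between 3.42 and 5.07. H2O-Young was also the highest group in 7 of these 8, and CG17107 was the exception, with an FPKM of 11.9 in PQ-Aged and 1.89 in H2O-Aged, and of 4.70 in PQ-Young and 10.2 in H2O-Young. Of the 15 highest loci, 6 had an FPKM under 1 in one or more groups.

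CG4115 was lowest, with 1.04 FPKM in PQ-Aged against 25.9 in H2O-Aged, and 37.8 in PQ-Young against 0.980 in H2O-Young. The responses ran in opposite directions, -4.64 in aged and 5.27 in young flies, and gave a difference of -9.91, at a locus that also holds a small noncoding RNA gene. CG10063 was highest in PQ-Young and lowest in H2O-Young, with an FPKM of 10.1 in PQ-Aged and 17.4 in H2O-Aged, and of 69.8 in PQ-Young and 3.24 in H2O-Young. CG43117 and NijB, a ninjurin, were low in PQ-Aged alone. CG43117 had an FPKM of 0.493 in PQ-Aged, 12.7 in H2O-Aged, 16.2 in PQ-Young and 8.41 in H2O-Young. NijB had an FPKM of 0.443 in PQ-Aged, 3.68 in H2O-Aged, 10.2 in PQ-Young and 6.10 in H2O-Young. In both genes H2O-Aged lay much closer to the young groups than to PQ-Aged.

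Several of the lowest genes have known roles. ninaE, the Rh1 opsin of the main photoreceptors (chromosome 3R, 19886255 to 19888206), had an FPKM of 117 in PQ-Aged and 241 in H2O-Aged, and of 634 in PQ-Young and 238 in H2O-Young. Its level was alike in both water groups, and paraquat flies lay above them when young and below them when aged, for a difference of -2.46. Rh3, a UV-sensitive opsin, had 23.6 FPKM in PQ-Aged against 32.0 in H2O-Aged, and 63.0 in PQ-Young against 17.2 in H2O-Young, a difference of -2.31. PGRP-SD, a secreted peptidoglycan receptor, had an FPKM of 7.38 in PQ-Aged and 32.6 in H2O-Aged, and of 51.1 in PQ-Young and 42.9 in H2O-Young, so that PQ-Aged stood alone at the low end, for a difference of -2.40. klar, which helps position nuclei and lipid droplets, stood out in PQ-Young, with an FPKM of 20.0 in PQ-Aged and 22.3 in H2O-Aged, and of 164 in PQ-Young and 23.0 in H2O-Young. Glut4EF, a transcription factor, and msl-2, which directs dosage compensation of the X in males, were lowest in H2O-Young. Glut4EF had an FPKM of 511 in PQ-Aged, 354 in H2O-Aged, 224 in PQ-Young and 19.7 in H2O-Young. msl-2 had an FPKM of 18.0 in PQ-Aged, 32.7 in H2O-Aged, 4.63 in PQ-Young and 1.42 in H2O-Young. In 825-Oak, CG42246, bocks, an inner nuclear membrane protein, and smid, an AAA ATPase, H2O-Young was again the lowest group and H2O-Aged the highest. These 4 genes and CG11596 had differences between -2.39 and -2.01.

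**Figure D2:**
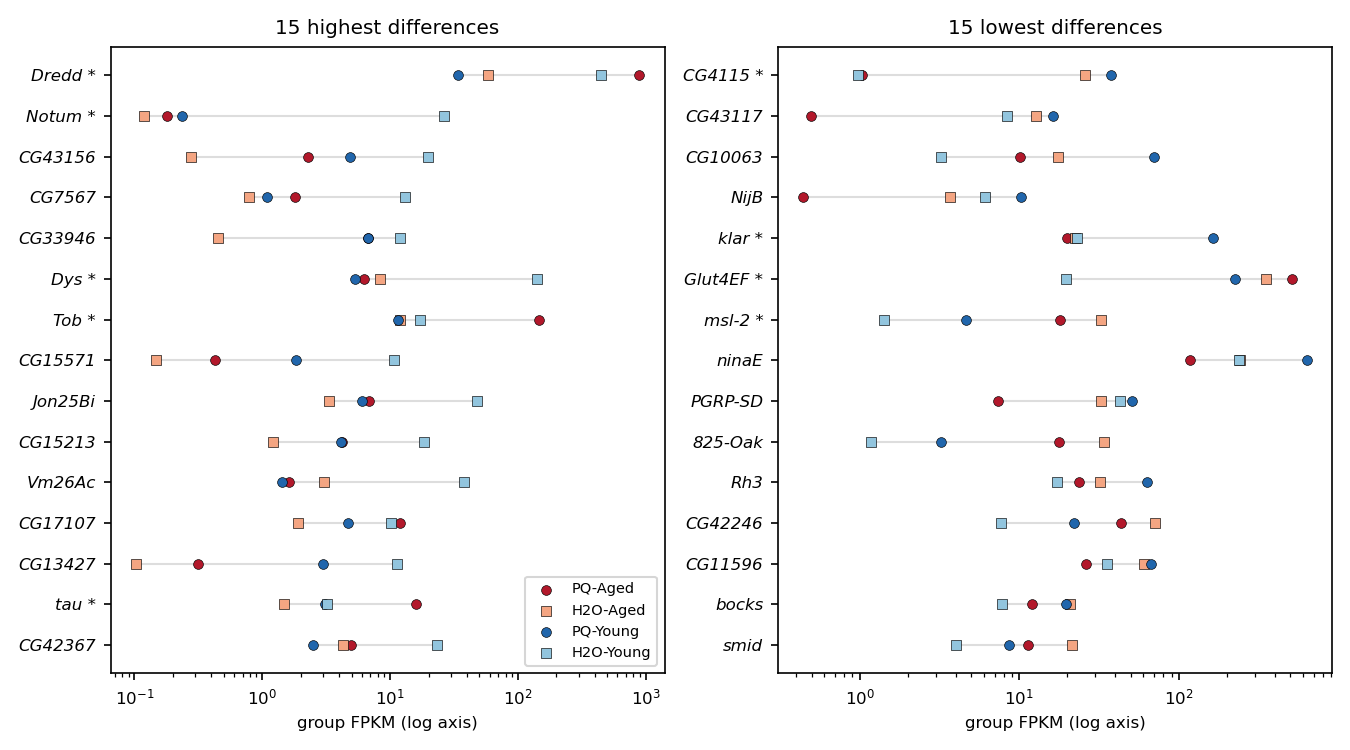
Group FPKM (log axis) of the 15 genes with the highest (left) and the 15 with the lowest (right) difference, with paraquat groups as circles, water groups as squares, aged groups in red tones and young groups in blue tones. An asterisk marks a locus that also holds a small RNA gene. H2O-Young is the rightmost point for most genes at left.

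A small RNA gene, shorter than 300 bases, shared the locus with 5 of the 15 highest and 4 of the 15 lowest genes, against 42 of all 6043. These were Dredd, Notum, Dys, Tob and tau on the high side and CG4115, klar, Glut4EF and msl-2 on the low side. Over all loci with a single protein-coding gene, 15 of 50 with a small RNA gene (30%) and 1599 of 8697 without one (18.4%) lay past 2-fold in either direction. Past 4-fold the shares were 22% and 3.51%. Loci with no protein-coding gene lay past 2-fold at 237 of 462 (51.3%). The part of the small RNA genes in these values was not tested.

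Among genes that reached 100 FPKM in one or more groups, the 5 highest were Dredd, Dys, Tob, CG8534 and yl. CG8534, a fatty acid elongase (chromosome 3R, 9812747 to 9813939), had an FPKM of 225 in PQ-Aged and 201 in H2O-Aged, and of 12.98 in PQ-Young and 121 in H2O-Young. PQ-Young was far below the other groups, and the difference was 3.38. The same held for yl, the receptor that takes yolk into the oocyte, with 1161 FPKM in PQ-Aged against 1059 in H2O-Aged, and 223 in PQ-Young against 1666 in H2O-Young, a difference of 3.04 at a locus that holds mir-4917. The 5 lowest of these abundant genes were klar, Glut4EF, ninaE, CG12826 and CG4570. CG12826 had 280.0 FPKM in PQ-Aged against 338 in H2O-Aged, and 121 in PQ-Young against 43.1 in H2O-Young. CG4570 had 137 FPKM in PQ-Aged against 222 in H2O-Aged, and 130.3 in PQ-Young against 63.4 in H2O-Young. H2O-Young was the lowest and H2O-Aged the highest group in both. Nearest to the limits, CG10466 lay just inside 1 at 1.0013 and CG43112 just outside at 0.9996, while Cep97 lay just inside -1 at -1.0016 and CG31550 just outside at -0.9996.

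Among the 6043 genes, 15 had responses past 2-fold in opposite directions. In 13 of them paraquat flies were above water when aged and below it when young. The 5 most abundant were CG41128, Dredd, CG12158, Obp28a, an odorant-binding protein, and Jon25Bi. CG41128 had 262 FPKM in PQ-Aged against 126 in H2O-Aged, and 234 in PQ-Young against 709 in H2O-Young. Obp28a had 14.5 FPKM in PQ-Aged against 6.95 in H2O-Aged, and 9.32 in PQ-Young against 33.4 in H2O-Young. In both, H2O-Young was highest and H2O-Aged lowest. The reverse pattern was seen in ninaE and CG4115. A shared direction was about as rare, since 19 genes were 2-fold or more below water at both ages and 2 were above it. The 2 were ssx and Nrx-1, a synaptic adhesion protein. ssx, a splicing factor related to Sxl, had 124 FPKM in PQ-Aged against 33.3 in H2O-Aged, and 47.8 in PQ-Young against 12.2 in H2O-Young. Nrx-1 had 23.7 FPKM in PQ-Aged against 1.70 in H2O-Aged, and 34.5 in PQ-Young against 3.68 in H2O-Young. Their differences were small, -0.07 for ssx and 0.57 for Nrx-1, and both loci hold a microRNA gene (mir-4961 and mir-4952). Of the 19, the 5 most abundant were CG18628, CG13947, pippin, CG13428 and Vm32E. Vm32E alone of these had a difference past 1, at 2.09, from a response of -1.48 in aged and -3.56 in young flies.

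Gene lists were then read beside the medians over all loci, an aged response of -0.07, a young response of -0.04 and a difference of -0.02. The lists at the high end were secreted peptides of immunity, digestive proteases and lysozymes, eggshell proteins and odorant-binding proteins. Those at the low end were Delta class glutathione S-transferases, the CCT chaperonin, and germline, phototransduction and cell division genes. The Toll pathway and the insulin, FOXO and TOR genes lay there as well. All of these lists but the Delta class enzymes and CCT turn above 0 when Gapdh1 is set equal. That scaling takes the median of all loci to 0.64 as well, so the distance of each list from all loci stays the same. Most high lists had a young response below 0 and an aged response near or above 0, and eggshell and yolk genes had both below 0.

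**Figure D3:**
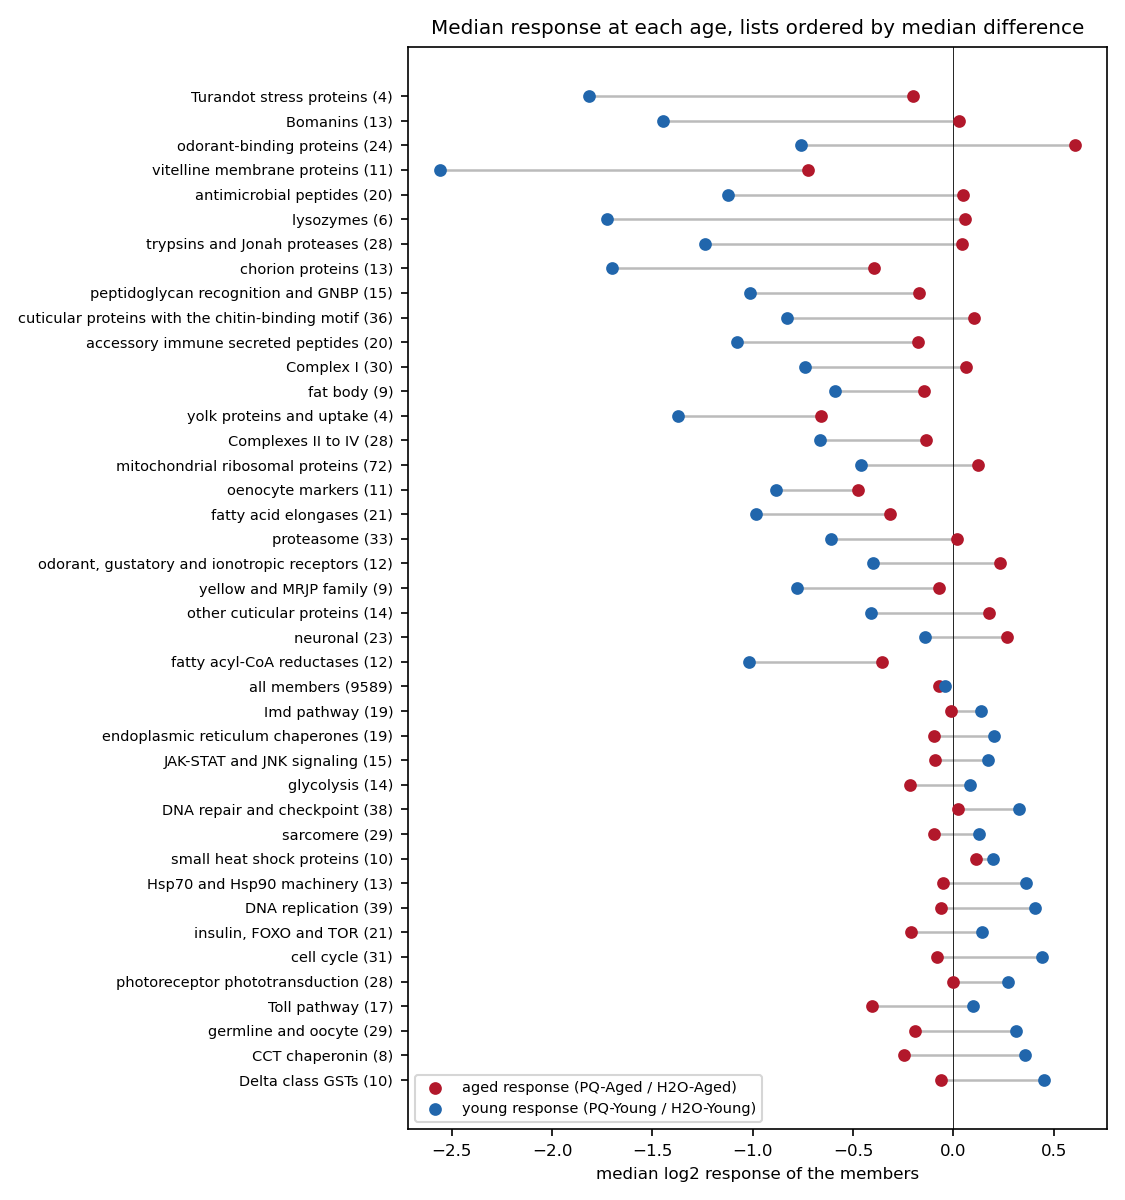
Median aged response (red) and median young response (blue), in log2, of the 24 lists with the highest and the 16 with the lowest median difference among lists of 4 or more members, with the median of all loci between them and the number of members in parentheses. With Gapdh1 set equal, the differences of all the lowest lists except Delta class GSTs and CCT chaperonin would lie above 0.

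Immune effectors stood high as a group. Bomanins, short peptides secreted under Toll signaling, had a median difference of 1.86, with 10 of 13 members at 1 or more and none at -1 or less, and a median response of 0.03 in aged and -1.45 in young flies. The list includes IM33, an infection-induced peptide outside the Bomanin family. BomS5 (chromosome 2R, 18389959 to 18390242) had 394 FPKM in PQ-Aged against 324 in H2O-Aged, and 112 in PQ-Young against 506 in H2O-Young. IM33 had 278 FPKM in PQ-Aged against 318 in H2O-Aged, and 477 in PQ-Young against 2579.7 in H2O-Young. BomS3 had 569.9 FPKM in PQ-Aged against 373 in H2O-Aged, and 353 in PQ-Young against 839.6 in H2O-Young. In each of them H2O-Young was the highest group, PQ-Young lay more than 2-fold below it, and the aged groups differed by less than 2-fold.

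Antimicrobial peptides had a median difference of 1.46, with 14 of 20 at 1 or more and none at -1 or less. AttD, an attacin, had 5.70 FPKM in PQ-Aged against 5.14 in H2O-Aged, and 1.49 in PQ-Young against 11.6 in H2O-Young. Def, the defensin, had 10.4 FPKM in PQ-Aged against 15.2 in H2O-Aged, and 5.18 in PQ-Young against 60.0 in H2O-Young. Drsl3, a drosomycin-like peptide, was below water when young and above it when aged, with an FPKM of 6.10 in PQ-Aged and 2.53 in H2O-Aged, and of 2.46 in PQ-Young and 6.74 in H2O-Young. Of the abundant members, Drs, the antifungal drosomycin, had 571 FPKM in PQ-Aged against 450.3 in H2O-Aged, and 476 in PQ-Young against 1063 in H2O-Young, a difference of 1.501. Mtk, metchnikowin, had 184 FPKM in PQ-Aged against 336 in H2O-Aged, and 118 in PQ-Young against 579.9 in H2O-Young, a difference of 1.43. H2O-Young was the highest group in all 5 peptides.

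Turandot proteins, secreted under stress, were at 1 or more in all 4 members described. Of 8 listed genes, 3 were at 0 in some group and 1 stayed below 1 FPKM. TotM had 47.9 FPKM in PQ-Aged against 51.8 in H2O-Aged, and 14.3 in PQ-Young against 52.6 in H2O-Young. TotC had 18.1 FPKM in PQ-Aged against 22.2 in H2O-Aged, and 9.01 in PQ-Young against 52.2 in H2O-Young. In both, PQ-Young was the lowest group and the other groups lay within 3-fold of each other. A list of 20 further immune peptides had 9 members at 1 or more and 2 at -1 or less, and shares 4 members with the Bomanins and 1 with the antimicrobial peptides. Listericin, an antibacterial peptide, had 417 FPKM in PQ-Aged against 209 in H2O-Aged, and 195 in PQ-Young against 422 in H2O-Young, so that PQ was above water by about as much in aged flies as below it in young ones. Dso2, a daisho peptide of the Toll response, had 245 FPKM in PQ-Aged against 176 in H2O-Aged, and 72.4 in PQ-Young against 400.4 in H2O-Young.

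Upstream of the effectors the pattern was mixed. Peptidoglycan recognition proteins and their relatives had a median of 0.98, with 6 of 15 at 1 or more and 1, PGRP-SD, at -1 or less. PGRP-SC1a, an amidase that degrades peptidoglycan, had 2.42 FPKM in PQ-Aged against 2.76 in H2O-Aged, and 1.27 in PQ-Young against 10.8 in H2O-Young. PGRP-LC, the receptor at the head of the Imd pathway, had 58.4 FPKM in PQ-Aged against 65.1 in H2O-Aged, and 188 in PQ-Young against 418 in H2O-Young. The Imd pathway had a median of -0.16, which becomes 0.49 with Gapdh1 set equal. In it 2 of 19 members were at 1 or more, Dredd and PGRP-SC2, close to the 11.9% of all loci. The Toll pathway had a median of -0.60, which becomes 0.06 with Gapdh1 set equal, with 2 of 17 at 1 or more and 2 at -1 or less, close to the 11.9% and 8.01% of all loci. tub, the adaptor of Toll, had 23.2 FPKM in PQ-Aged against 43.8 in H2O-Aged, and 32.3 in PQ-Young against 20.8 in H2O-Young, a difference of -1.55. cact, the inhibitor that holds dl in the cytoplasm, had 113 FPKM in PQ-Aged against 153 in H2O-Aged, and 147 in PQ-Young against 105 in H2O-Young, a difference of -0.91.

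Digestive proteases and lysozymes, which are made in the midgut, were also high. Other midgut enzymes, the maltases, amylases and mannosidases, had a median of 0.32. Of these, 1 of 15 was at 1 or more, against 11.9% of all loci. Trypsins and Jonah proteases had a median difference of 1.33, with 22 of 28 members at 1 or more and none at -1 or less. alphaTry had 1797 FPKM in PQ-Aged against 1151 in H2O-Aged, and 3066 in PQ-Young against 4883 in H2O-Young. deltaTry had 3.44 FPKM in PQ-Aged against 2.65 in H2O-Aged, and 7.07 in PQ-Young against 33.5 in H2O-Young. Jon65Aiv had 555 FPKM in PQ-Aged against 658 in H2O-Aged, and 1210.2 in PQ-Young against 2309.8 in H2O-Young. The young ratio was below 1 in all of them, most strongly in deltaTry. The 6 digestive lysozymes had a median of 1.34, with 4 at 1 or more. LysX had 25.4 FPKM in PQ-Aged against 21.7 in H2O-Aged, and 35.7 in PQ-Young against 149 in H2O-Young. LysP had 110.1 FPKM in PQ-Aged against 113 in H2O-Aged, and 300.5 in PQ-Young against 492 in H2O-Young. Of 30 protease genes listed, 28 were described, and their summed FPKM was 4061 in PQ-Aged, 3477 in H2O-Aged, 7716 in PQ-Young and 15566 in H2O-Young. Like the oenocyte markers, they were higher in young flies. The summed FPKM of all loci, given below with transcript length, was higher in young flies too. The part of midgut RNA in other values was not tested.

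Eggshell genes were also high, and both eggshell and yolk genes had a median paraquat response below 0 at both ages. Vitelline membrane proteins had a median response of -0.72 in aged and -2.56 in young flies, a median difference of 1.57, and 8 of 11 members at 1 or more. Vm34Ca had 121 FPKM in PQ-Aged against 199.6 in H2O-Aged, and 314 in PQ-Young against 2780.5 in H2O-Young. Vm26Ab had 111 FPKM in PQ-Aged against 219.9 in H2O-Aged, and 391 in PQ-Young against 2308 in H2O-Young. The 13 chorion genes of the outer eggshell had a median response of -0.39 in aged and -1.70 in young flies, with 8 differences at 1 or more. Cp16, Cp15 and, by little, Cp36 were above water with PQ in aged flies. Cp16 had 42.8 FPKM in PQ-Aged against 36.3 in H2O-Aged, and 249 in PQ-Young against 1242 in H2O-Young. Cp15 had 1521 FPKM in PQ-Aged against 945 in H2O-Aged, and 935 in PQ-Young against 2503 in H2O-Young. The yolk list had a median of 0.71, which becomes 0.12 after quantile normalization, and yl alone of its 4 members was at 1 or more. Yp2, a yolk protein, had 351 FPKM in PQ-Aged against 684 in H2O-Aged, and 4220.2 in PQ-Young against 14515 in H2O-Young, a difference of 0.82. Yp1 had 479 FPKM in PQ-Aged against 1131 in H2O-Aged, and 3099 in PQ-Young against 6020.3 in H2O-Young, a difference of -0.28, since its aged ratio was the lower one. Eggshell and yolk proteins are made by follicle cells, and yolk proteins also by the fat body. This does not cover yl, the receptor of the oocyte. The summed FPKM of the 11 vitelline membrane genes was 511 in PQ-Aged, 886 in H2O-Aged, 1202 in PQ-Young and 7455 in H2O-Young, with none at 0 in any group. The part of ovary RNA in these results was not tested.

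Odorant-binding proteins, small secreted carriers of hydrophobic ligands, had median ratios above 1 in aged and below 1 in young flies. Of 24 members, 17 were at 1 or more and none at -1 or less, and the median difference was 1.64 from a median response of 0.61 in aged and -0.76 in young flies. The aged response passed 2-fold upward in 7 of the 24. Obp83b (chromosome 3R, 5976177 to 5976817) had 13.8 FPKM in PQ-Aged against 2.84 in H2O-Aged, and 8.59 in PQ-Young against 15.8 in H2O-Young. lush, which binds alcohols and serves pheromone sensing, had 1.501 FPKM in PQ-Aged against 0.161 in H2O-Aged, and 0.716 in PQ-Young against 0.878 in H2O-Young. It reached 1 FPKM in PQ-Aged alone, so its values rest on few fragments. In both genes H2O-Aged was the lowest group. The abundant Obp19d had 287 FPKM in PQ-Aged against 161 in H2O-Aged, and 239 in PQ-Young against 385 in H2O-Young. Obp99c was near equal in its responses, with 152 FPKM in PQ-Aged against 176 in H2O-Aged, and 464 in PQ-Young against 555 in H2O-Young. Of 53 genes of the list, 16 were listed at 0 in one or more groups and are not described.

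Cuticular proteins with the chitin-binding motif had a median of 0.96, with 17 of 36 at 1 or more and 4 at -1 or less. Of 96 listed genes, 44 were at 0 in some group and 11 stayed below 1 FPKM. Some members, such as Cpr65Eb and Cpr66Cb, entered only through H2O-Young, which by itself raises the difference. Among members with 1 FPKM or more in all 4 groups the median was 0.98. The largest difference of all 9589 loci belonged to Cpr65Eb, at 15.30, but it rests on values near 0, with an FPKM of 0.207 in PQ-Aged, 0.000154 in H2O-Aged, 0.0397 in PQ-Young and 1.19 in H2O-Young. Cpr49Ab, better expressed, had 29.6 FPKM in PQ-Aged against 28.1 in H2O-Aged, and 57.6 in PQ-Young against 119 in H2O-Young, a difference of 1.13.

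**Figure D4:**
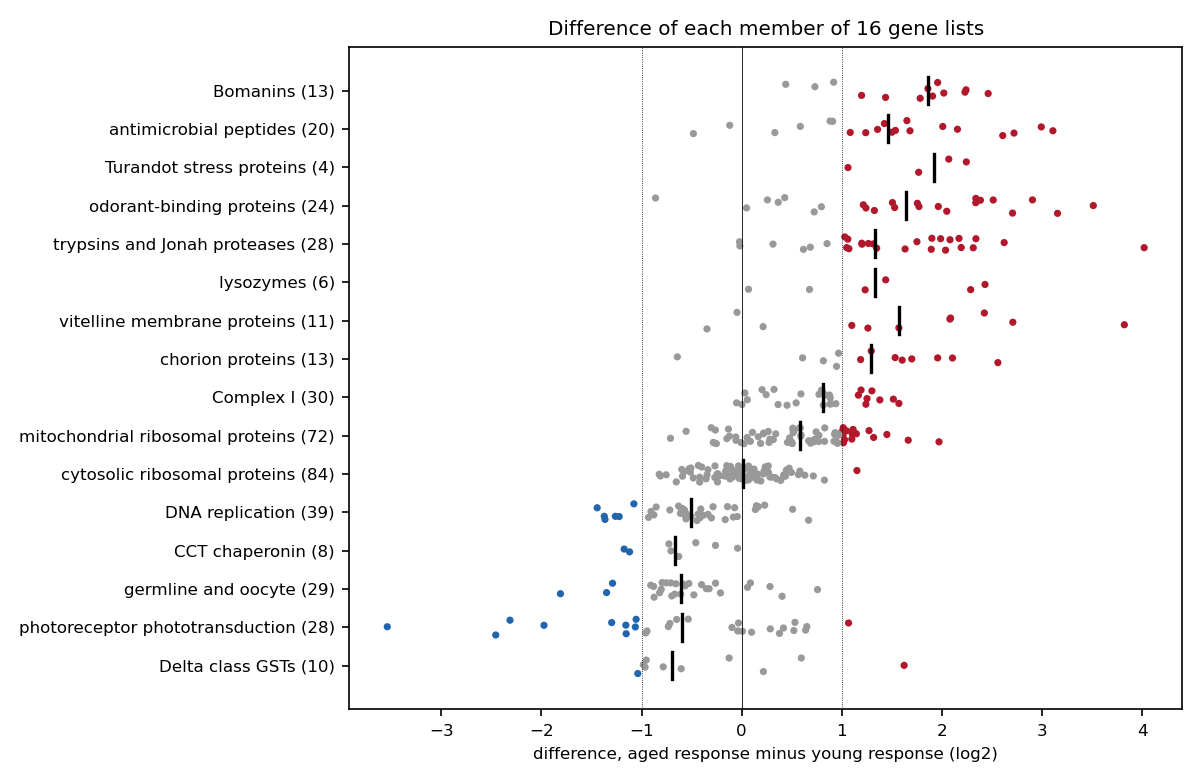
Difference (log2, aged response minus young response) of each member of 16 gene lists, as points spread at random in height, with the median as a bar and the number of members in parentheses. Members at 1 or more are red and at -1 or less blue. All points would shift up by 0.65 with Gapdh1 set equal, which takes the medians of the DNA replication, germline and phototransduction lists above 0.

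Mitochondrial and proteasome subunits had moderately high medians. Complex I, which passes electrons from NADH into the respiratory chain, had a median difference of 0.81, with 8 of 30 at 1 or more and none at -1 or less. ND-B12 had 1449 FPKM in PQ-Aged against 1001 in H2O-Aged, and 3241 in PQ-Young against 6399 in H2O-Young. ND-B22 had 454 FPKM in PQ-Aged against 268 in H2O-Aged, and 496 in PQ-Young against 868 in H2O-Young. Both were above water when aged and below it when young. Complexes II to IV had a median of 0.69 (7 of 28 at 1 or more, 1 at -1 or less). ATP synthase had a median of 0.20 (2 of 15 at 1 or more, near the 11.9% of all loci), which becomes -0.18 after quantile normalization. Mitochondrial ribosomal proteins had a median of 0.58, with 16 of 72 at 1 or more. mRpS33 had 132 FPKM in PQ-Aged against 77.1 in H2O-Aged, and 141 in PQ-Young against 325 in H2O-Young. By contrast, the 84 cytosolic ribosomal proteins had a median of 0.01, with RpL38 alone past 2-fold, and this median was -0.33 after quantile normalization. The proteasome, which degrades ubiquitin-marked proteins, had a median of 0.57. Of its members 5 of 33 were at 1 or more, a share not far above the 11.9% of all loci. Prosalpha2, a core subunit, had 2075 FPKM in PQ-Aged against 1942 in H2O-Aged, and 6936 in PQ-Young against 15986 in H2O-Young. Rpt6, an ATPase of the cap, had 1195 FPKM in PQ-Aged against 775 in H2O-Aged, and 1579.8 in PQ-Young against 2428 in H2O-Young. Quantile normalization lowered these medians to 0.41 for Complex I, 0.18 for Complexes II to IV, 0.32 for mitochondrial ribosomal proteins and 0.18 for the proteasome.

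Lipid enzymes typical of oenocytes had median responses below 0 at both ages, and lower ones when young. The oenocyte markers had a median response of -0.47 in aged and -0.88 in young flies, with 3 of 11 differences at 1 or more, those of CG18609, FASN3 and FarO. CG18609, an elongase, had 89.4 FPKM in PQ-Aged against 111 in H2O-Aged, and 637 in PQ-Young against 2756 in H2O-Young. FASN3, a fatty acid synthase, had 33.4 FPKM in PQ-Aged against 37.0 in H2O-Aged, and 205 in PQ-Young against 694 in H2O-Young. FarO, a fatty acyl-CoA reductase, had 271 FPKM in PQ-Aged against 379.6 in H2O-Aged, and 1034 in PQ-Young against 3044 in H2O-Young. In these genes the age gap in water exceeded the paraquat ratio at either age. Fad2, the desaturase of female pheromone synthesis, had 1531 FPKM in PQ-Aged against 2125 in H2O-Aged, and 8545 in PQ-Young against 15747 in H2O-Young, a difference of 0.41. spidey, a reductase of fatty acid elongation, had 1101 FPKM in PQ-Aged against 1159 in H2O-Aged, and 5129 in PQ-Young against 8060.2 in H2O-Young, a difference of 0.58. Elongases had a median of 0.58, with 6 of 21 at 1 or more. Fatty acyl-CoA reductases had a median of 0.45, with 3 of 12. CG30008, an abundant elongase, had 879 FPKM in PQ-Aged against 1035 in H2O-Aged, and 9559 in PQ-Young against 28309 in H2O-Young. CG9458, another, had 525 FPKM in PQ-Aged against 1001 in H2O-Aged, and 8656 in PQ-Young against 20395 in H2O-Young. Quantile normalization lowered the medians to 0.12 for the markers, 0.16 for elongases and 0.15 for the reductases.

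Enzymes that handle superoxide and peroxides showed no shared direction. The 16 superoxide dismutases, catalase and peroxiredoxins had a median of 0.36, and -0.06 after quantile normalization, with 1 at 1 or more and 1 at -1 or less. Sod1, the cytosolic superoxide dismutase (chromosome 3L, 11112281 to 11113740), had 5587 FPKM in PQ-Aged against 6705 in H2O-Aged, and 25791 in PQ-Young against 43243 in H2O-Young, a difference of 0.48. Ccs, the copper chaperone of Sod1, had 113 FPKM in PQ-Aged against 95.0 in H2O-Aged, and 224 in PQ-Young against 429 in H2O-Young, a difference of 1.18. The peroxiredoxins Prx4 and Prx2 lay on the other side. Prx4 had 19.4 FPKM in PQ-Aged against 35.3 in H2O-Aged, and 29.0 in PQ-Young against 17.7 in H2O-Young, a difference of -1.58. Prx2 had 1311 FPKM in PQ-Aged against 1837 in H2O-Aged, and 1229 in PQ-Young against 928 in H2O-Young, a difference of -0.89. Glutathione synthesis and Nrf2 targets had a median of 0.10 with none of 11 past 2-fold.

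Glutathione S-transferases, which join glutathione to toxic compounds, were split by class. Delta class enzymes had the lowest median of the lists, -0.69, which is -0.04 with Gapdh1 set equal. Their median response was -0.06 in aged and 0.45 in young flies. However, 1 of 10 was at -1 or less and 1 at 1 or more, close to the 8.01% and 11.9% of all loci. GstD1, the most abundant, had 2008 FPKM in PQ-Aged against 1948 in H2O-Aged, and 1536 in PQ-Young against 981 in H2O-Young. GstD2 had 604 FPKM in PQ-Aged against 646 in H2O-Aged, and 400.3 in PQ-Young against 249 in H2O-Young. GstD5 had 40.8 FPKM in PQ-Aged against 63.1 in H2O-Aged, and 4.17 in PQ-Young against 3.15 in H2O-Young. In these genes PQ-Young lay above H2O-Young, and paraquat flies were level with water flies or lower when aged. GstD11, the member at 1 or more, had 1.003 FPKM in PQ-Aged against 1.02 in H2O-Aged, and 0.832 in PQ-Young against 2.61 in H2O-Young, and 3 of the 10 members had a difference above 0. Epsilon class enzymes had a median of 0.27. Cytochrome P450s showed no shared direction, with medians of -0.04 for Cyp6, 0.30 for Cyp4 and 0.16 for the other members, a list that also holds Cyp1, a cyclophilin and not a P450.

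Phototransduction genes held more members on the low side than any other list, 9 of 28 at -1 or less, and 1 at 1 or more. Their median difference was -0.59, which is 0.06 with Gapdh1 set equal. In young flies 9 of them were 2-fold or more above water with paraquat, and in aged flies none was. inaC, the protein kinase C of the eye, had 0.965 FPKM in PQ-Aged against 0.987 in H2O-Aged, and 5.63 in PQ-Young against 0.495 in H2O-Young. Arr2, the main arrestin, had 126 FPKM in PQ-Aged against 112 in H2O-Aged, and 332 in PQ-Young against 180.0 in H2O-Young. As in ninaE and Rh3 above, PQ-Young was the highest group. These genes mark the eye rather than oenocytes, and their summed FPKM was 613 in PQ-Aged, 719 in H2O-Aged, 1702 in PQ-Young and 966 in H2O-Young, with 28 of 34 listed genes described and none at 0. The part of head RNA in these values was not tested.

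Genes of DNA replication and division lay on the low side with small values each. DNA replication had a median of -0.51, which is 0.15 with Gapdh1 set equal, with 6 of 39 at -1 or less and none at 1 or more. The cell cycle had a median of -0.53, or 0.13 with Gapdh1 set equal, with 5 of 31 at -1 or less. Orc1, of the origin recognition complex, had 28.2 FPKM in PQ-Aged against 46.5 in H2O-Aged, and 36.2 in PQ-Young against 21.9 in H2O-Young. PCNA, the sliding clamp, had 365 FPKM in PQ-Aged against 392 in H2O-Aged, and 409 in PQ-Young against 291 in H2O-Young. borr, of the chromosomal passenger complex, had 79.7 FPKM in PQ-Aged against 115.03 in H2O-Aged, and 70.1 in PQ-Young against 35.9 in H2O-Young. In all 3 genes H2O-Young was the lowest group, as in the abundant CycB, cyclin B, with 579 FPKM in PQ-Aged against 654 in H2O-Aged, and 404 in PQ-Young against 249 in H2O-Young. DNA repair genes had a median of -0.29, or 0.36 with Gapdh1 set equal, with 7 of 38 at -1 or less. Beside these 3 lists, 8.01% of all loci were at -1 or less.

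Germline genes had a median of -0.61, or 0.04 with Gapdh1 set equal, with 3 of 29 at -1 or less, close to the 8.01% of all loci, and none at 1 or more. piwi, which silences transposons in the germline, had 11.6 FPKM in PQ-Aged against 17.8 in H2O-Aged, and 9.13 in PQ-Young against 5.50 in H2O-Young. The 29 genes, markers of ovary rather than oenocytes, summed to an FPKM of 1984 in PQ-Aged, 2045 in H2O-Aged, 1314 in PQ-Young and 1083 in H2O-Young, higher in aged flies, unlike the eggshell genes. Of 35 listed genes, ng1 was at 0 in one or more groups. The part of ovary RNA in the replication and division genes was not tested.

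Several chaperones lay on this side. All 8 subunits of CCT, the ring that folds actin and tubulin, had a difference below 0, with a median of -0.67 that is -0.02 with Gapdh1 set equal, and 2 were at -1 or less. CCT6 had 98.8 FPKM in PQ-Aged against 158 in H2O-Aged, and 175 in PQ-Young against 124 in H2O-Young. CCT5 had 239 FPKM in PQ-Aged against 280.5 in H2O-Aged, and 307 in PQ-Young against 261 in H2O-Young. The Hsp70 and Hsp90 machinery had a median of -0.41, or 0.24 with Gapdh1 set equal, with 3 of 13 at -1 or less, those of Hsp60A, a mitochondrial chaperonin, Hsc70-4 and Hsp68. This list shares 2 members with the endoplasmic reticulum chaperones. Hsc70-4, the main constitutive Hsp70, had 794 FPKM in PQ-Aged against 1384 in H2O-Aged, and 1204 in PQ-Young against 864 in H2O-Young, a difference of -1.28. Hsp68, an inducible Hsp70, had 146 FPKM in PQ-Aged against 136 in H2O-Aged, and 71.4 in PQ-Young against 24.3 in H2O-Young, a difference of -1.45. Hsp83, the fly Hsp90, had 573 FPKM in PQ-Aged against 669.9 in H2O-Aged, and 545 in PQ-Young against 405 in H2O-Young, a difference of -0.65. H2O-Young was the lowest group in Hsp68 and Hsp83. The 10 small heat shock proteins were split, with a median of -0.35, or 0.30 with Gapdh1 set equal, 2 at -1 or less and 1, CG7409 at 1.08, at 1 or more. Of the lowest, Hsp26 (chromosome 3L, 9376418 to 9377427) had 4341 FPKM in PQ-Aged against 5573 in H2O-Aged, and 1406 in PQ-Young against 599.6 in H2O-Young, a difference of -1.59. Hsp23 had 4809 FPKM in PQ-Aged against 3803 in H2O-Aged, and 472 in PQ-Young against 138 in H2O-Young, a difference of -1.43. Both stood at high levels in aged flies with or without paraquat, and in young flies PQ lay more than 2-fold above water. ref(2)P, the autophagy receptor p62, was another gene of this side, with 271 FPKM in PQ-Aged against 557 in H2O-Aged, and 359 in PQ-Young against 342 in H2O-Young, while the autophagy list as a whole had a median of -0.08. The circadian clock (-0.07), vacuolar proton ATPase (0.01) and translation factors (0.08) also had medians near 0.

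Families were also formed from gene symbols alone, and 126 had 5 or more members. The highest medians were those of Vm (2.09), BomS (1.91), Obp (1.52), Cp (1.41), Jon (1.35) and Cpr (1.13). The lowest were those of Su(var) (-0.88), SMC (-0.87), Act (-0.86), Mcm (-0.72), Hsp (-0.71) and Smyd (-0.71), and all 6 lie further below 0 than the 0.65 by which the Gapdh1 scaling shifts them. Su(var) genes were named for their part in silencing near heterochromatin, SMC proteins shape chromosomes, Act genes are actins and Mcm genes encode the replicative helicase. Many of these families overlap the lists above, so they are no separate evidence.

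Transcript length moved with the difference. Over deciles of the longest annotated transcript among the 8747 single-gene loci, the median difference was 0.59 in the shortest (193 to 755 bases) and 0.25 in the next, and it lay between -0.23 and 0.06 in the other 8. A difference of 1 or more was seen at 33.3% of the shortest loci and at 4.23% of those in the eighth decile. In the shortest decile the median response was 0.07 in aged and -0.54 in young flies, so the pattern with length lay mainly in the young groups. The summed FPKM of all loci also differed, at 768733 in PQ-Aged, 770263 in H2O-Aged, 1252259.6 in PQ-Young and 1693462 in H2O-Young.

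**Figure D5:**
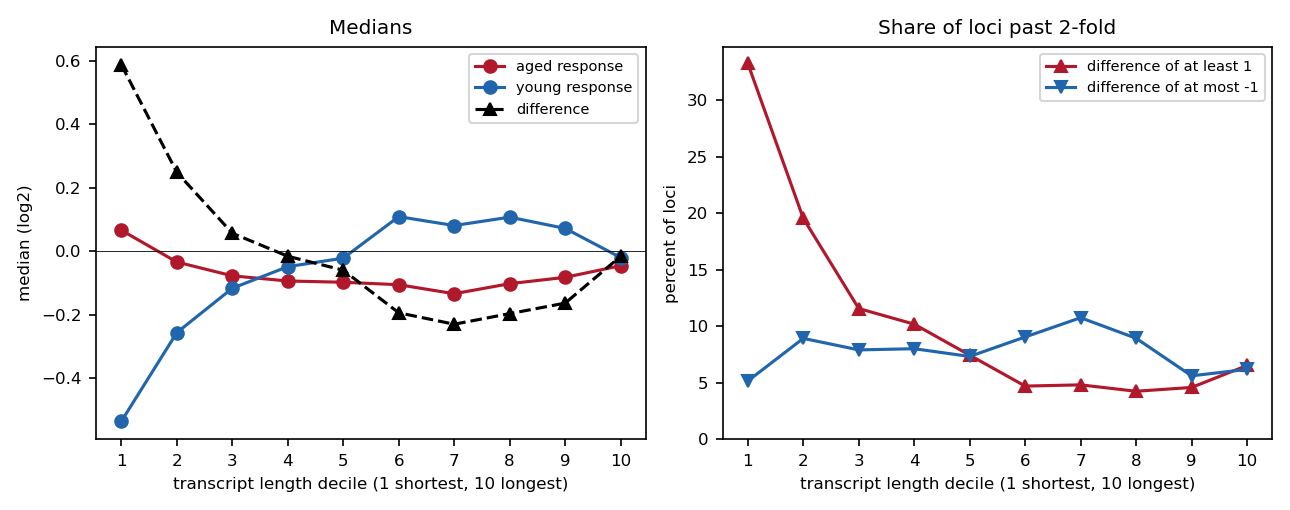
Median aged response, young response and difference (left, log2) and share of loci past 2-fold (right, percent) by decile of transcript length, about 875 single-gene loci each. The young response climbs over the first 6 deciles while the aged response stays between -0.13 and 0.07.

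Many high lists consist of short genes. The median length was 383 bases for Bomanins, 410 for antimicrobial peptides and 627 for odorant-binding proteins, against 1896 for all single-gene loci. It was 813 for Complex I, 729.5 for Complexes II to IV and 786.5 for mitochondrial ribosomal proteins. Of all single-gene loci in the 2 shortest deciles, 33.3% and 19.5% were at 1 or more. The shares of these 3 lists, 8 of 30, 7 of 28 and 16 of 72, lay between those values. After the median of loci of similar length was taken off each difference, the list medians were 1.09 for Bomanins, 0.65 for antimicrobial peptides, 1.14 for Turandot proteins and 0.68 for lysozymes. They were 1.08 for odorant-binding proteins, 1.10 for trypsins and Jonah proteases and 1.17 for vitelline membrane proteins. Complex I came to 0.38, Complexes II to IV to 0.13 and mitochondrial ribosomal proteins to 0.24, while cytosolic ribosomal proteins came to -0.27. On the low side the medians were -1.02 for Delta class enzymes, -0.53 for phototransduction, -0.44 for the cell cycle and -0.36 for DNA replication. This alternative was chosen after the data were seen, and the part of length in the differences was not tested further.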

How the data were processed

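RiboTag RNA-seq was made from oenocytes of female flies in 12 libraries, 3 in each of 4 groups, taken from the sample labels. According to the study's methods, reads were aligned with TopHat2 to dm6, assembled with Cufflinks and compared with Cuffdiff. The deposited FPKM values are the authors' estimates per locus and group, with libraries pooled, and no column of per-library values was used (0 left out). The table's other columns, the authors' log2 fold changes, test statistics, p-values, q-values and calls for each pair of groups, were not used. The counting is not stated to use strand, so overlapping genes are uncertain. Responses, differences, medians and counts past 2-fold were computed with pandas 2.3.3, after a test on simulated data. Accessions were matched to RefSeq gene names for 99.2%, and coordinates are those of Release 6 of the genome.

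Named genes are the 15 highest and 15 lowest at 10 FPKM or more, the 5 highest and lowest at 100 or more, the 5 most abundant of each pattern of direction, and for each list the 3 largest differences and the 2 most abundant members. Those nearest to the limits, RpL13A and Gapdh1 were added by rule. Cyp4g1, ng1, Ilp6 and Ilp8 were named after their values were seen. The members, the 76 gene lists and the tests were chosen with earlier results of these data known. Alternatives were other scalings, filters on low values, a pseudocount and, chosen after seeing the data, centring on transcript length and leaving out loci with a small RNA gene.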

Additional observations from a re-analysis of the deposited data

How the results depend on the processing

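No paired analysis was possible because the table gives 1 pooled value per group, and for the same reason no library could be left out in turn. Gapdh1 scaling, which moves all loci alike, gave 3045 loci at 1 or more and 191 at -1 or less, with a median difference of 0.64, and it turned the medians of germline (0.043), phototransduction (0.061), sarcomere (0.32), Toll pathway (0.057), small heat shock (0.30), Hsp70 and Hsp90 (0.24), DNA replication (0.15), cell cycle (0.13) and insulin, FOXO and TOR (0.13) genes above 0. Loci at 1 or more numbered 1834 with no minimum FPKM, 603 with 10 FPKM or more in a group and 738 with 1 or more in all 4 groups. Loci at -1 or less numbered 416 with a pseudocount of 1 FPKM and 393 with the minimum of 10. The pseudocount brought the SD of the aged response to 0.39 and the difference of Cyp6a16, a P450 of low level, to 0.24, with its sign turned. The minimum of 10 turned the median of chemosensory receptors to -0.49, but this is the value of Gr43a alone, the lowest member. Without that minimum, 11 of the 12 receptors had a difference above 0. Centring on length turned those of OS-D proteins to -0.016 and metallothioneins to -0.47, and quantile normalization that of superoxide dismutases, catalase and peroxiredoxins to -0.064. These turns are of medians 0.3 or more from 0, and the cause was not tested in any of them. Of medians nearer to 0, quantile normalization turned 13 more, among them ATP synthase (-0.18), the TCA cycle (-0.38) and translation factors (-0.23). Median-ratio scaling left all 76 list medians as reported, with shifts of at most 0.00086. The lists hold single-gene loci only, so the use of single-gene loci alone could not move these medians. Leaving out loci with a small RNA gene moved them by 0.20 or less, most for spermatheca and reproductive tract genes, to 0.35. Among 373 named genes, 34 were no longer past 2-fold after quantile normalization, 38 after centring on length and 41 with the pseudocount. With Gapdh1 scaling 39 were no longer past it and 64 newly were. Many of the 373 were named for abundance and were not past 2-fold to begin with, so they could not be lost. Loci under 1 FPKM rest on few fragments, which limits the largest differences.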

Other observations

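Further gene groups, with values only. Metallothioneins, which bind copper and zinc, had a median response of 1.03 in aged and -0.04 in young flies, and 2 of 6 members had a difference of 1 or more. MtnA, the most abundant, was near 2-fold above water at both ages, with 988 FPKM in PQ-Aged against 514 in H2O-Aged, and 1275 in PQ-Young against 584 in H2O-Young, a difference of -0.18. MtnD had 27.3 FPKM in PQ-Aged against 12.6 in H2O-Aged, and 4.27 in PQ-Young against 5.80 in H2O-Young, a difference of 1.56. MtnF had 9.67 FPKM in PQ-Aged against 3.69 in H2O-Aged, and 28.5 in PQ-Young against 55.3 in H2O-Young, a difference of 2.35. The list's median difference, 0.34, turned to -0.47 after centring on transcript length.

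Neuronal genes had a median difference of 0.47, with 4 of 23 at 1 or more and none at -1 or less. The share at 1 or more was not far above the 11.9% of all loci. Their levels were low, at 99.4 FPKM summed in PQ-Aged, 60.2 in H2O-Aged, 135 in PQ-Young and 119 in H2O-Young. Vmat, the vesicular monoamine transporter, had 8.75 FPKM in PQ-Aged against 3.99 in H2O-Aged, and 8.74 in PQ-Young against 12.2 in H2O-Young. Neuropeptide genes had 8 of 28 at 1 or more and 2, Ilp6 and Ilp8, at -1 or less, against 11.9% and 8.01% of all loci. Nplp3 was abundant among them, with 45.4 FPKM in PQ-Aged against 47.4 in H2O-Aged, and 62.8 in PQ-Young against 144 in H2O-Young, a difference of 1.14. In both Vmat and Nplp3 H2O-Young was the highest group.

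Muscle and insulin genes had medians below 0, and above 0 with Gapdh1 set equal. Sarcomere genes had a median of -0.33, with 2 of 29 at 1 or more and 4 at -1 or less, against 11.9% and 8.01% of all loci. Act88F, the actin of flight muscle, had 64.3 FPKM in PQ-Aged against 91.3 in H2O-Aged, and 89.5 in PQ-Young against 34.4 in H2O-Young, a difference of -1.88. Act57B, another muscle actin, had 551 FPKM in PQ-Aged against 325 in H2O-Aged, and 203 in PQ-Young against 62.6 in H2O-Young, a difference of -0.94. Insulin, FOXO and TOR genes had a median of -0.52. chico, the insulin receptor substrate, had 2.50 FPKM in PQ-Aged against 2.99 in H2O-Aged, and 1.80 in PQ-Young against 0.835 in H2O-Young, a difference of -1.37. The abundant ImpL2, which binds insulin-like peptides, and Thor, the target of FOXO that restrains translation, had differences of 0.12 and 0.16.

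By chromosome arm, 9.69% to 12.1% of single-gene loci were at 1 or more and 1.72% to 9.08% at -1 or less, the lowest share being 1 of 58 loci on chromosome 4. By level, the median difference was 0.31 in the lowest decile of mean FPKM, -0.21 in the fourth and 0.24 in the highest.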
